A study of Caenorhabditis elegans with 15 samples.

Results

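The 8 worm genes described here, of 46739 genes in the deposited count table, are skr-3, skr-4, skr-5, cul-6, eol-1, F26F2.1, F26F2.3 and trpl-5. They were chosen by name as genes of an intracellular stress response built around a ubiquitin ligase, and were found in the table through their WormBase identifiers in the WBcel235 annotation. The names were picked on values measured in these same libraries, and no source used here records which comparison served, so their levels and changes are a description in every comparison and carry no p-value. By textbook knowledge skr-3, skr-4, skr-5 and cul-6 encode ubiquitin ligase subunits. The other 4 are known as genes of the same response and not as ligase genes, so the set is wider than a ligase.

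The libraries come from whole adult Caenorhabditis elegans picked by hand 24 h after the middle of the fourth larval stage, with 3 libraries for each of 5 genotypes. These are wild type (wt), the knock-out gld2, and libraries labelled as double knock-outs, gld2-ccf1, gld2-ccr4 and gld2-parn1, which by their labels all carry the gld2 knock-out too. The labels name no alleles. The gene gld-2 encodes a cytoplasmic poly(A) polymerase, which lengthens the poly(A) tails of mRNAs, mainly in the germline, whereas ccf-1, ccr-4 and parn-1 encode deadenylases, which shorten them. The series asked how these opposing enzymes act in early oogenesis.

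Worms infected by microsporidia or by the Orsay virus, both of which grow inside intestinal cells, switch on a common set of genes called the intracellular pathogen response. Much of the same set rises when the proteasome is blocked or after prolonged heat. Part of it is a cullin-RING ubiquitin ligase: a cullin scaffold (CUL-6) holds a RING protein, which brings in the ubiquitin-loaded enzyme, and a Skp1-related adaptor (SKR), which holds an F-box protein that binds the substrate. This ligase is known to help worms survive heat.

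Library totals ran from 28.1 to 39.4 M counts (M for 1e+06), and levels are given as CPM, counts per 1e+06 counts after scaling by TMM factors. Nuclear ribosomal RNA took from 1.15% to 14.3% of the counts, the highest in gld2-ccf1 replicate 2. Transcripts of gld-2 averaged 211 ± 32.1 CPM in wt (SD, n = 3, as for all means below) and lay between 46.4 and 80.6 in the mutant libraries. The libraries labelled gld2-ccf1 were not low in ccf-1 but held 47500, 25300 and 15500 CPM, against a mean of 31.8 ± 4.38 for gld2. Those labelled gld2-parn1 held 60.6 ± 4.74 CPM of parn-1 against 50.6 ± 4.15, and ccr-4 was at 170 ± 7.45 CPM in those labelled gld2-ccr4 against 281 ± 17. The ccf-1 level goes against the label gld2-ccf1, and parn-1 was not lower in gld2-parn1 than in gld2. A count per gene cannot show whether part of a gene is deleted, or from which copies of a gene its RNA came. Each genotype name below therefore means the libraries labelled so, and a difference from gld2 is not ascribed to loss of the second gene. The intestinal genes ges-1, elt-2, act-5 and ifb-2, the muscle genes unc-54 and myo-3 and the germline genes glh-1 and pgl-1 had counts in every library, as whole worms should. The sperm phosphatase gene gsp-3 was at 0 in wt replicate 1 and between 20.9 and 61.6 CPM in every mutant library.

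All 8 genes had their highest mean in the libraries labelled gld2-ccf1. Each of the 3 gld2-ccf1 libraries lay above every gld2 and every wt library for each gene. The summed level of the 8 genes was 67.5 to 84.7 CPM there, against 18.5 to 20.8 for gld2 and 12.9 to 18.6 for wt. The sums of gld2-ccr4 (25.7 to 32.5) and gld2-parn1 (28.1 to 34.9) overlapped each other and lay between those of gld2 and gld2-ccf1. In these bulk samples, more or fewer cells that express a gene and more or less RNA per cell cannot be told apart.

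**Figure D1:**
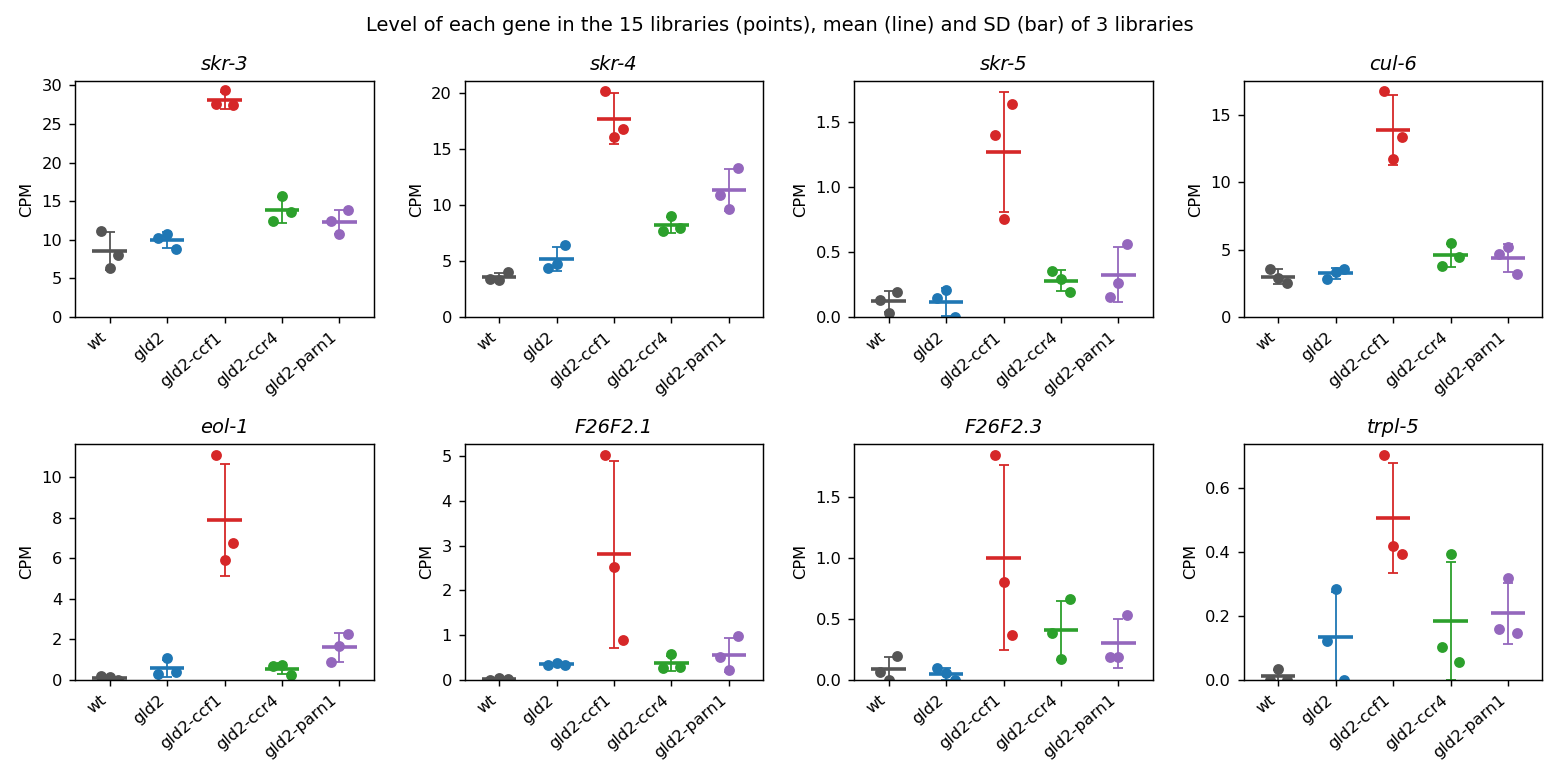
Level of each of the 8 genes in CPM (vertical axes, linear from 0) in the 15 libraries by genotype. Points are libraries, lines are means and bars are SD of 3 libraries. In every panel the gld2-ccf1 points lie above all wt and gld2 points.

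The Skp1-related adaptor gene skr-3 (WBGene00004809, WBcel235 chromosome V, 16121084 to 16122649, plus strand) had 11.2, 6.4 and 8.04 CPM for wt replicates 1 to 3, 10.3, 10.7 and 8.75 for gld2, 27.6, 29.4 and 27.4 for gld2-ccf1, 12.5, 15.7 and 13.6 for gld2-ccr4, and 12.5, 10.7 and 13.9 for gld2-parn1. The gld2-ccf1 libraries formed a tight group well above the rest, gld2-ccr4 lay above gld2 without overlap, and wt, gld2 and gld2-parn1 overlapped. The log2 fold change against gld2 was 1.5 (SE 0.17) in gld2-ccf1, 0.49 (SE 0.17) for gld2-ccr4 and 0.31 (SE 0.17) for gld2-parn1. Per kilobase of exon, skr-3 stood at 35.8 ± 1.4 CPM in gld2-ccf1 and 12.6 ± 1.33 in gld2, the highest level of the 8 genes in each genotype but gld2-parn1, where skr-4 had 16.6 ± 2.75 and skr-3 15.7 ± 2.05.

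For skr-4, a further adaptor gene (WBGene00004810, chromosome V, 19924224 to 19925033, plus strand), the wt libraries held 3.39, 3.34 and 3.99 CPM and the gld2 libraries 4.4, 4.76 and 6.42. It reached 20.2, 16.1 and 16.8 CPM with gld2-ccf1, 7.67, 9.04 and 7.98 with gld2-ccr4, and 10.9, 9.63 and 13.3 with gld2-parn1. No genotype overlapped another for skr-4, and the order from low to high was wt, gld2, gld2-ccr4, gld2-parn1 and gld2-ccf1. Its log2 fold change between wt and gld2 was 0.53 (SE 0.19), and against gld2 it was 1.77 (SE 0.18) in gld2-ccf1, 1.12 (SE 0.18) in gld2-parn1 and 0.67 (SE 0.18) in gld2-ccr4. Without the libraries above 4% nuclear ribosomal RNA the value between wt and gld2 was 0.26.

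The last adaptor gene of the set, skr-5 (WBGene00004811, chromosome V, 17347902 to 17348723, plus strand), was rare. Replicates 1 to 3 gave 4, 1 and 7 counts for wt, 6, 8 and 0 for gld2, 48, 18 and 67 for gld2-ccf1, 14, 12 and 7 for gld2-ccr4, and 6, 10 and 19 for gld2-parn1. Only gld2-ccf1 stood clear of the other genotypes, at 1.27 ± 0.459 CPM against 0.116 ± 0.105 for gld2 (log2 fold change 3.4, SE 0.79). The final bases of skr-5 overlap lsy-27 on the minus strand (17348665 to 17350193), and whether reads were counted by strand is not given in the sources used here. The gene lsy-27 averaged 13 ± 1.06 CPM in gld2-ccf1, 5.97 ± 0.0816 in gld2 and 15 ± 2.48 in wt, and it rose between gld2 and gld2-ccf1 (1.12, SE 0.16, adjusted p = 1.59e-05; 0.35 with adjusted p = 0.155 on the somatic base). With wt, skr-5 averaged 0.12 ± 0.0797 CPM. The part of lsy-27 reads in the counts of skr-5 was not tested.

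The scaffold gene cul-6 (WBGene00000841, chromosome IV, 12586485 to 12590451, minus strand) had 3.58, 2.92 and 2.51 CPM for wt, 2.8, 3.35 and 3.58 for gld2, 16.8, 11.7 and 13.4 for gld2-ccf1, 3.82, 5.52 and 4.44 for gld2-ccr4, and 4.67, 5.21 and 3.2 for gld2-parn1. Levels of wt, gld2 and gld2-parn1 overlapped, gld2-ccr4 lay just above gld2, and all gld2-ccf1 libraries lay far above the rest. The log2 fold change against gld2 was 2.11 (SE 0.23) in gld2-ccf1, 0.50 (SE 0.23) for gld2-ccr4 and 0.43 (SE 0.23) for gld2-parn1. Per kilobase of exon, the level of cul-6 in gld2-ccf1 was 6.12 ± 1.14 CPM, below skr-3 and skr-4 (26 ± 3.29) and above skr-5 (2.05 ± 0.742).

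Outside the ligase, eol-1 (WBGene00045401, chromosome V, 13979462 to 13980907, minus strand) encodes a relative of the mammalian RNA decapping enzyme DXO and is known from work on olfactory learning. Replicates 1 to 3 gave 5, 4 and 0 counts for wt, 11, 41 and 13 for gld2, 378, 141 and 275 for gld2-ccf1, 26, 29 and 8 for gld2-ccr4, and 33, 63 and 77 for gld2-parn1. The wt libraries were lowest, gld2 and gld2-ccr4 overlapped, gld2-parn1 overlapped gld2 at its lower end, and gld2-ccf1 lay far above all. Means were 0.102 ± 0.0891 CPM for wt, 0.558 ± 0.428 for gld2, 7.9 ± 2.76 for gld2-ccf1, 0.532 ± 0.272 with gld2-ccr4 and 1.6 ± 0.701 with gld2-parn1.

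The log2 fold change of eol-1 between wt and gld2 was 2.5 (SE 0.81). Against gld2 it was 3.82 (SE 0.57) in gld2-ccf1, 1.51 (SE 0.57) in gld2-parn1 and -0.06 (SE 0.61) in gld2-ccr4. Replicate 2 gave 41 of the 65 counts of gld2, and without it the values for eol-1 were 1.66 between wt and gld2, 4.66 in gld2-ccf1, 2.35 in gld2-parn1 and 0.78 in gld2-ccr4.

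The genes F26F2.1 (WBGene00009166, chromosome V, 20559162 to 20561895, minus strand) and F26F2.3 (WBGene00009168, chromosome V, 20565289 to 20566554, minus strand) are uncharacterised and known as genes that infection raises. For F26F2.1 the counts were 0, 1 and 1 (wt), 14, 15 and 12 (gld2), 172, 60 and 36 (gld2-ccf1), 10, 23 and 10 (gld2-ccr4), and 19, 8 and 33 (gld2-parn1). The gld2 libraries were close to one another and above all of wt, and gld2-ccr4 and gld2-parn1 overlapped gld2. The gld2-ccf1 libraries were uneven, at 5.03, 2.52 and 0.882 CPM, and the lowest of them lay below the highest gld2-parn1 library (0.97). The ratio of gld2 to wt was 16.7, with a 95% counting interval from 4.34 to 142 because wt held only 2 counts. Against gld2 the log2 fold change of F26F2.1 was 2.99 (SE 0.62) in gld2-ccf1, 0.66 (SE 0.62) in gld2-parn1 and 0.06 (SE 0.64) in gld2-ccr4.

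For F26F2.3 the counts were 2, 0 and 7 (wt), 4, 2 and 0 (gld2), 63, 19 and 15 (gld2-ccf1), 15, 7 and 24 (gld2-ccr4), and 7, 7 and 18 (gld2-parn1). As for skr-4, gld2-ccf1, gld2-ccr4 and gld2-parn1 each lay above gld2 without overlap. Unlike skr-4, they overlapped one another, gld2-ccf1 running from 0.368 to 1.84 CPM and gld2-ccr4 from 0.172 to 0.658. The log2 fold changes of F26F2.3 against gld2 were 4.22 (SE 1.01) in gld2-ccf1, 2.91 (SE 1.02) for gld2-ccr4 and 2.48 (SE 1.03) for gld2-parn1, and the value between wt and gld2 was -0.80 (SE 1.14).

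A neighbour, F26F2.4, is also known as a gene of this response and lies 2741 bases from F26F2.3. It held 0, 1 and 0 counts for wt, none for gld2, 97, 29 and 28 for gld2-ccf1, 2, 0 and 0 for gld2-ccr4, and 5, 4 and 7 for gld2-parn1. With 3 counts over the gld2 libraries as the floor, F26F2.4 was at least 60.7-fold higher in gld2-ccf1 than in gld2, a description, since the gene was named after its values were seen and had enough counts only through gld2-ccf1. Intervals and floors cover counting error only. The gld2-ccf1 replicate 1 library had the most ccf-1 RNA of the 3 and the highest level of F26F2.1, F26F2.3 and F26F2.4. It was also highest for skr-4, cul-6, eol-1 and trpl-5. By contrast, skr-3 was highest in gld2-ccf1 replicate 2 (29.4 CPM) and skr-5 in gld2-ccf1 replicate 3 (1.64 CPM). The part of the ccf-1 RNA in the levels of these genes was not tested.

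The gene trpl-5 (WBGene00004149, chromosome II, 2085249 to 2090636, minus strand) encodes a TRP-like channel protein and was the rarest of the set per kilobase in each genotype. It gave 0, 1 and 0 counts (wt), 5, 11 and 0 (gld2), 24, 10 and 16 (gld2-ccf1), 4, 16 and 2 (gld2-ccr4), and 6, 12 and 5 (gld2-parn1). The gld2-ccf1 libraries lay from 0.392 to 0.702 CPM, above gld2 (0 to 0.282), and just overlapped gld2-ccr4, whose highest library had 0.394. Its log2 fold change between gld2 and gld2-ccf1 was 1.88 (SE 0.96). With 16 counts over the gld2 libraries and 1 over wt, the ratio of gld2 to wt was 13 with a counting interval from 2.02 to 546, which these depths cannot narrow.

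**Figure D2:**
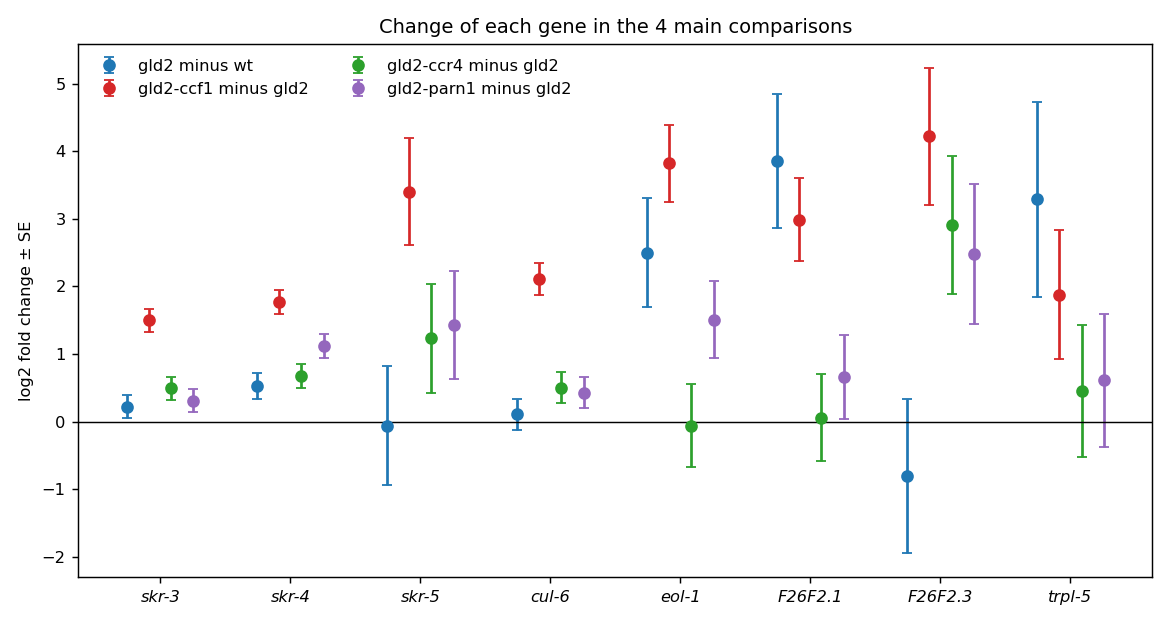
Log2 fold change ± SE of the 8 genes (horizontal axis) in the 4 main comparisons, from 3 libraries against 3. The values for gld2-ccf1 against gld2 run from 1.5 for skr-3 to 4.22 for F26F2.3. The abundant skr-3, skr-4 and cul-6 have small errors and the rare genes large ones.

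Changes were fitted across the whole table, and a gene was called where the adjusted p of edgeR's quasi-likelihood test was under 0.05. Between gld2 and gld2-ccf1, 7 of the 8 genes were called higher, all but trpl-5, beside 19.8% of the 16888 tested genes, and all 8 lay above gld2 without overlap, beside 25.1%. Their median log2 fold change was 2.55, with 0 for all tested genes. Between wt and gld2, 3 were called higher (skr-4, eol-1 and F26F2.1), beside 28.8%, and the same 3 did not overlap, beside 33.1%. Their median was 0.38, with 0.14 for all genes. For gld2-ccr4 against gld2, 3 were called higher (skr-3, skr-4 and F26F2.3), beside 11.1%, and 4 did not overlap, beside 21.1%. For gld2-parn1 against gld2, skr-4 alone was called higher, beside 4.90%, and skr-4 and F26F2.3 did not overlap, beside 18.1%. The medians were 0.50 and 0.89 in these comparisons, with 0 and 0.02 for all genes. Since measured values chose the genes, nothing is read from these counts. The 3 called for gld2-ccr4 fell to 0 without gld2 replicate 1 or gld2 replicate 2, and to 1 without any other single library of the comparison.

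The values depend on what is held constant between genotypes. With TMM factors computed on intestinal, epidermal, muscle and neuronal genes alone, the median of all genes was 0.43 between wt and gld2, -0.77 for gld2-ccf1, -0.53 for gld2-ccr4 and -0.48 for gld2-parn1 against gld2. The medians of the 8 genes were then 0.68, 1.72, -0.03 and 0.36. Among all genes called, the higher ones were 58.9%, 54.3%, 54.6% and 50% in these comparisons with all genes as the base, and 83.4%, 5.92%, 6.52% and 3.16% with somatic genes as the base. In gld2-ccf1 all 8 genes stayed higher than in gld2 on the somatic base, cul-6 at 1.32, skr-3 at 0.72 and skr-4 at 0.99. In gld2-ccr4 skr-3 was at -0.04, cul-6 at -0.02 and skr-4 at 0.14, and in gld2-parn1 skr-3 was at -0.21, cul-6 at -0.06 and skr-4 at 0.60.

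Set against wt, all 8 genes were called higher in gld2-ccf1, beside 32.1% of tested genes, 6 in gld2-ccr4, beside 30.0%, and 5 in gld2-parn1, beside 28.9%. These comparisons share the wt libraries, as those against gld2 share the gld2 libraries. Between the libraries labelled as double knock-outs, gld2-ccf1 was called higher than gld2-ccr4 for 6 genes, beside 14.4%, F26F2.3 and trpl-5 being the exceptions. It was called higher than gld2-parn1 for the same 6 genes, beside 20.0%. The log2 fold change of eol-1 was 3.88 (SE 0.57) against gld2-ccr4 and 2.31 (SE 0.52) against gld2-parn1, and that of skr-4 was 1.10 (SE 0.18) and 0.65 (SE 0.17). Between gld2-parn1 and gld2-ccr4, skr-4 (0.45, SE 0.18) and eol-1 (1.57, SE 0.57) lay higher in gld2-parn1 without overlap, beside 19.3% of tested genes. Neither was called, where 5.95% of tested genes were called higher.

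Column headers of the count table carry a track number, and the numbers fall into 2 stretches. The later stretch holds 4 libraries, gld2-ccf1 replicates 1 and 3, gld2-ccr4 replicate 3 and gld2-parn1 replicate 1, so most of gld2-ccf1 stood apart from all of gld2 and wt. What the numbers mean is not given in the sources used here. The library gld2-ccf1 replicate 2, of the first stretch, lay above every gld2 library for each of the 8 genes, with skr-3 at 29.4 CPM, cul-6 at 11.7 and eol-1 at 5.91. It is the only gld2-ccf1 library of that stretch, so the genotype's spread within the stretch was not measured.

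The partners of the ligase form a list of 3 genes outside the set: rcs-1, which encodes its RING protein, and fbxa-75 and fbxa-158, which encode F-box proteins tied to it. Like the other lists below, this list was chosen with earlier results of these data known, so it is not an independent check of the set. The gene rcs-1 had 5.45, 3.89 and 5.17 CPM with gld2 and 18.2, 16.2 and 16.5 with gld2-ccf1, where it rose (log2 change 1.81, SE 0.19, adjusted p = 5.14e-07). It also rose in gld2-parn1, to 8.4 ± 1.16 CPM (0.80, SE 0.19, adjusted p = 0.0109), while gld2-ccr4 held 6.9 ± 1.53 (0.51, SE 0.19, adjusted p = 0.0606). The rise of rcs-1 in gld2-parn1 was lost without gld2 replicate 2 (adjusted p = 0.0652), without gld2-parn1 replicate 1 (adjusted p = 0.0721) and on the somatic base (0.30, adjusted p = 0.298). With wt, rcs-1 averaged 4.84 ± 0.459 CPM, the same mean as with gld2.

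No count of fbxa-158 was found in wt and 26 in gld2, at least 7.06-fold more than 3 counts over wt would give (adjusted p = 0.00215). Between gld2 and gld2-ccf1, fbxa-158 rose from 0.219 ± 0.0697 to 2.84 ± 0.441 CPM (3.66, SE 0.63, adjusted p = 1.86e-04). In gld2-parn1 it stood at 0.892 ± 0.394 CPM (2, SE 0.62, adjusted p = 0.0508) and in gld2-ccr4 at 0.11 ± 0.131 (-0.97, SE 0.74, adjusted p = 0.389). For fbxa-75 there were 14 counts in gld2 and 43 in gld2-ccf1 (1.95, SE 1.11, adjusted p = 0.184). With gld2-ccf1 left out of the filter, fbxa-75 did not have enough counts to be tested, so its value is a description. Tested directly, gld2-ccf1 was above gld2-ccr4 for rcs-1 (1.30, SE 0.19, adjusted p = 5.05e-05) and fbxa-158 (4.63, SE 0.68, adjusted p = 9.89e-05). It was above gld2-parn1 for rcs-1 (1.01, SE 0.18, adjusted p = 2.37e-04) and fbxa-158 (1.67, SE 0.55, adjusted p = 0.0244).

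Genes known to switch the response on or off made smaller moves. Of 12 such regulators, 5 rose and 1 fell in gld2-ccf1 against gld2, beside 19.8% higher and 16.7% lower among all genes, and their median was -0.01. On the somatic base 7 of them were called lower in gld2-ccf1, beside 9320 of all 16888 tested genes. The gene pals-22, which keeps the response off, had 4.33 ± 1.31 CPM with gld2 and 4.33 ± 0.148 with gld2-ccf1, and its antagonist pals-25 had 5.64 ± 0.553 and 4.65 ± 0.622 (adjusted p = 0.305). The gene drh-1, which encodes a RIG-I-like sensor of viral RNA, lay between 144 and 164 CPM in all 15 libraries. The transcription factor gene zip-1, an activator of part of the response, rose between wt and gld2, from 4.51 ± 1.58 to 8.31 ± 2.12 CPM (0.88, SE 0.25, adjusted p = 0.00636). Without gld2 replicate 3 the adjusted p of zip-1 was 0.0522, and in gld2-ccf1 it had 6.25 ± 1.75 CPM (-0.42, SE 0.25, adjusted p = 0.201). On the somatic base pals-22, pals-25, drh-1 and zip-1 were called lower in gld2-ccf1 than in gld2. Their values were -0.76, -1.04, -0.79 and -1.2 (adjusted p = 0.0129, 0.000263, 1.11e-06 and 1.48e-05), beside a median of -0.77 for all genes.

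Higher in gld2-ccf1 than in gld2 were pals-16 (1.15, SE 0.33, adjusted p = 0.0099) and pals-17 (0.96, SE 0.30, adjusted p = 0.0181), both known as negative regulators, which on the somatic base stood at 0.38 (adjusted p = 0.361) and 0.19 (adjusted p = 0.645). So were pnp-1 (0.68, adjusted p = 0.0164), sta-1 (0.72, adjusted p = 0.0315) and efl-1 (0.36, adjusted p = 0.00192), which on the somatic base stood at -0.14, -0.05 and -0.41. The Rb homologue gene lin-35 fell by 0.24 (SE 0.06, adjusted p = 0.0033). The rise of pals-16 was lost without gld2 replicate 2 (adjusted p = 0.0535), that of pals-17 without gld2 replicate 3 (0.0671) or gld2-ccf1 replicate 2 (0.0552), and that of pnp-1 without gld2 replicate 1 (0.0817), gld2 replicate 3 (0.0576), gld2-ccf1 replicate 1 (0.0745) or gld2-ccf1 replicate 2 (0.0663). The rise of sta-1 was lost without gld2 replicates 1 (0.101) or 2 (0.0719) and without any 1 of the gld2-ccf1 libraries (0.0519, 0.0525 and 0.0823). For dpl-1 and pals-20 the values in gld2-ccf1 were -0.05 and -0.15, and -0.82 (adjusted p = 1.47e-06) and -0.88 (adjusted p = 0.431) on the somatic base. In gld2-parn1 the 12 regulators lay between -0.13 and 0.25. In gld2-ccr4 pals-17 alone rose (0.96, SE 0.30, adjusted p = 0.0303), and this was lost when any 1 of several libraries was left out, with adjusted p up to 0.116 without gld2-ccr4 replicate 3, and on the somatic base (0.43, adjusted p = 0.293).

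The wider response was followed with a list of 48 other genes recalled from the literature on infection by microsporidia or virus. Of these, 33 belong to the pals family, a large nematode family of mostly unknown biochemical function. Whether infection raises each listed pals gene was not checked, so the list is not limited to genes known to be raised. It was also chosen with earlier results of these data known. Its shares beside all genes, medians and p-values therefore describe these libraries and are not an independent check of the rise of the set. Of the 48, 42 had enough counts to be tested. Their summed level was 16.8 to 33.6 CPM for wt, 31.9 to 38.4 for gld2, 135 to 198 for gld2-ccf1, 26.4 to 39.3 for gld2-ccr4 and 77.9 to 112 for gld2-parn1. The gld2-ccf1 libraries were thus highest and gld2-parn1 next, with no overlap between them or with the other genotypes. In gld2-ccf1 against gld2, 26 of the 42 rose (61.9%, beside 19.8% of all genes), with a median of 2.06, and edgeR called none lower, nor did any fall at an unadjusted p under 0.05 or by DESeq2. In gld2-parn1 13 rose (31%, beside 4.90% higher and 4.90% lower), with a median of 1.58, and edgeR called none lower, where 1 fell at an unadjusted p under 0.05 and 1 by DESeq2. In gld2-ccr4 2 rose and 1 fell (beside 11.1% and 9.23%), with a median of 0.01. Between wt and gld2, 13 rose and 2 fell (beside 28.8% and 20.2%), with a median of 1.14, or 0.63 where genes without a count in one genotype are set to the bound that 3 counts give. The genes that fell, named after their values were seen, were pals-14 (-2.42, SE 0.74, adjusted p = 0.0101; 0.0855 without the libraries above 4% nuclear ribosomal RNA) and pals-18 (-1.44, SE 0.47, adjusted p = 0.0157). On the somatic base the medians were 1.24 in gld2-ccf1, 1.11 in gld2-parn1 and -0.51 in gld2-ccr4.

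Some listed genes entered the test only through the genotype in which they were high. Leaving gld2-ccf1 out of the filter kept 34 of the 42, of which 19 rose there, with a median of 1.74. Leaving gld2-parn1 out kept 39, of which 12 rose in gld2-parn1, with a median of 1.23. Without the libraries above 4% nuclear ribosomal RNA the count of rises in gld2-parn1 was 7.

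Of 28 tested pals genes, 17 rose in gld2-ccf1 and 9 in gld2-parn1 against gld2, and in the direct comparison 3 were higher and 1 lower in gld2-ccf1 than in gld2-parn1. Of the 14 other tested genes, 9 rose in gld2-ccf1 and 4 in gld2-parn1, and 8 were higher in gld2-ccf1 in the direct comparison. There, 20.0% of all genes were higher and 17.2% lower in gld2-ccf1 than in gld2-parn1. The gene pals-14 stood at about one level in gld2-ccf1 and gld2-parn1, with 0.041 ± 0.037 CPM for gld2, 6.9, 3.98 and 4.19 for gld2-ccf1 and 4.41, 3.97 and 6.67 for gld2-parn1. It rose by 6.77 (SE 0.57) in each, with adjusted p = 2.91e-08 and 1.73e-07. The gld2 level of pals-14 rests on few counts and was called lower than that of wt, so the size of this rise depends on those few counts.

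The uncharacterised F57G4.11 was instead high in gld2-ccf1 alone, with 12.2, 9.35 and 11.8 CPM there, at most 0.823 in any gld2-parn1 library and at most 0.302 in any other. It rose by 6.31 (SE 0.63, adjusted p = 9.7e-07) in gld2-ccf1, the value for gld2-parn1 was 1.70 (SE 0.70, adjusted p = 0.139), and the difference between both was 4.61 (SE 0.55, adjusted p = 7.28e-06). The gene pals-6 rose in both, to 8.01, 10.3 and 7.6 CPM with gld2-ccf1 (4.72, SE 0.53, adjusted p = 2.98e-06) and 3.54, 4.39 and 6.14 with gld2-parn1 (3.84, SE 0.52, adjusted p = 1.93e-04), from 0.278 to 0.407 with gld2. So did pals-39, by 4.95 (SE 0.55, adjusted p = 1.12e-06) and 4.51 (SE 0.55, adjusted p = 2.92e-05).

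B0507.6 had 2.44, 3.44 and 4.44 CPM in gld2-parn1 and 0.139 to 0.307 in gld2, and rose by 4.10 (SE 0.82, adjusted p = 0.00617). Without the libraries above 4% nuclear ribosomal RNA the adjusted p of B0507.6 was 0.128. The gene was also called higher in gld2-ccf1 than in gld2, and this too was lost without those libraries (2.97, adjusted p = 0.119). The F-box gene fbxa-182 rose between wt and gld2 (1.32, SE 0.42, adjusted p = 0.0183), and this was lost without wt replicate 2 (adjusted p = 0.0713), wt replicate 3 (0.0816) or gld2 replicate 3 (0.0597). The 3 genes of the list called in gld2-ccr4 against gld2 were named after their values were seen. They were pals-14 (2.80, SE 0.69, adjusted p = 0.00689) and pals-39 (2.05, SE 0.59, adjusted p = 0.0174), which rose, and sdz-6 (-2.21, SE 0.52, adjusted p = 0.00482), which fell. Both rises were lost without gld2-ccr4 replicate 1 (adjusted p = 0.0528 and 0.0707), and that of pals-39 also without gld2 replicate 1 (0.0883). Tested directly, 28 of the 42 genes were higher in gld2-ccf1 than in gld2-ccr4, beside 14.4% of all genes. Higher in gld2-parn1 than in gld2-ccr4 were 12, beside 5.95%.

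**Figure D3:**
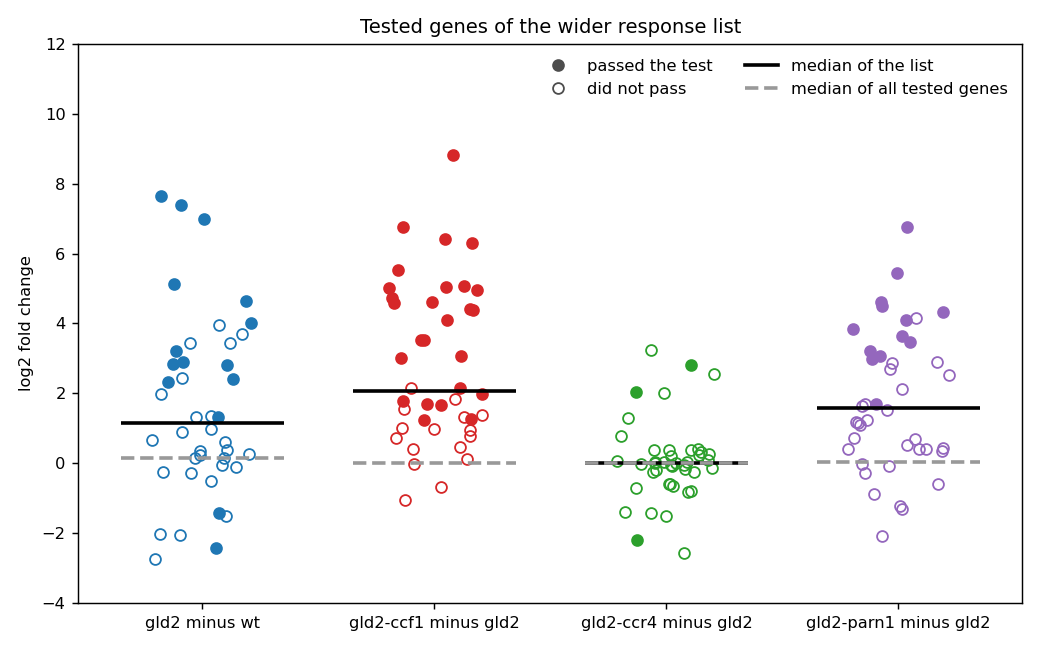
Log2 fold change of the 42 tested genes of the wider response list in the 4 main comparisons. Each point is a gene, filled where it passed edgeR's test, and lines mark the median of the list (black) and of all tested genes (dashed grey). The list median is 2.06 in gld2-ccf1, 1.58 in gld2-parn1 and 0.01 in gld2-ccr4.

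Of 16 tested Skp1-related genes besides the members, 4 rose in gld2-ccf1 against gld2, and 3 rose and 1 fell in gld2-ccr4. In gld2-parn1 2 fell, and between wt and gld2 4 rose and 7 fell. Among all genes 19.8% were higher and 16.7% lower in gld2-ccf1, and 11.1% and 9.23% in gld2-ccr4. The shares were 4.90% and 4.90% in gld2-parn1, and 28.8% and 20.2% between wt and gld2. The medians of these skr genes were 0.13, 0.13, -0.04 and -0.36. On the somatic base 3 rose and 8 fell in gld2-ccf1, beside 586 higher and 9320 lower of all 16888 tested genes. The genes skr-12, skr-13 and skr-8 fell between wt and gld2 and were higher again in gld2-ccf1, where skr-19 also rose (0.49, SE 0.15, adjusted p = 0.0132). For skr-12 the CPM were 5.21, 4.45 and 3.08 (wt), 1, 0.947 and 1.61 (gld2) and 15, 17.2 and 13.6 (gld2-ccf1), so that it rose by 3.68 (SE 0.29, adjusted p = 1.77e-08) and passed its wt level. Its value was 1.41 (SE 0.29, adjusted p = 0.00164) in gld2-ccr4 and 0.31 (SE 0.30, adjusted p = 0.578) in gld2-parn1.

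The gene skr-13 fell by 2.30 (SE 0.30, adjusted p = 2.24e-06) between wt and gld2, and was above gld2 by 1.65 (SE 0.30, adjusted p = 2.23e-04) in gld2-ccf1 and by 1.5 (SE 0.30, adjusted p = 0.0013) in gld2-ccr4. For skr-8 the fall was -4.44 (SE 0.50, adjusted p = 1.29e-06), and the values against gld2 were 2.60 (SE 0.50, adjusted p = 7.03e-04) in gld2-ccf1 and 3.45 (SE 0.50, adjusted p = 1.37e-04) in gld2-ccr4. Reads from similar skr copies could be split between genes, and how the authors treated such reads is not given in the sources used here. The adaptor gene skr-1, which serves the general scaffold CUL-1, had a level of 120 ± 7.58 CPM per kilobase in gld2 and 116 ± 23 in gld2-ccf1. On the same scale skr-3 reached 35.8 in gld2-ccf1 and skr-4 26, so the general adaptor kept the higher level.

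The general scaffold gene cul-1 held 65.1 ± 0.316 CPM per kilobase in gld2 and 63.6 ± 8.38 in gld2-ccf1, whereas cul-6 held 1.42 ± 0.177 and 6.12 ± 1.14 on that scale. On the somatic base 10 of 12 tested cullins and cofactors fell in gld2-ccf1 against gld2, beside 9320 of all 16888 tested genes. With all genes as the base 4 rose and 3 fell, beside 19.8% and 16.7%. Those that fell included cul-4 (-0.43, SE 0.06, adjusted p = 1.82e-05) and cul-5 (-0.40, SE 0.06, adjusted p = 2.66e-05). The gene ubc-12, which encodes the conjugating enzyme for NEDD8, the modifier that activates cullins, fell by 1.73 between wt and gld2 (SE 0.21, adjusted p = 6.59e-07) and rose by 1.21 in gld2-ccf1 against gld2 (SE 0.20, adjusted p = 1.13e-04; 0.42 with adjusted p = 0.0868 on the somatic base).

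**Figure D4:**
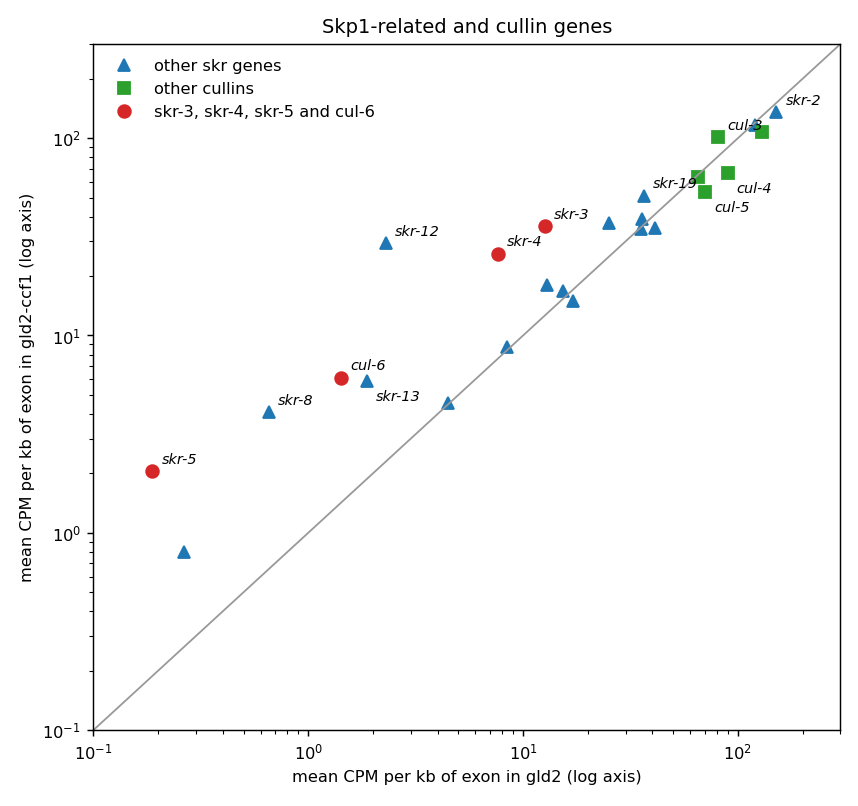
Mean CPM per kilobase of exon in gld2 (horizontal, log axis) and gld2-ccf1 (vertical, log axis) for skr-3, skr-4, skr-5 and cul-6 (circles), other skr genes (triangles) and other cullins (squares). Each point is the mean of 3 libraries, and the line marks equal levels. The 4 circles and, among the triangles, skr-12, skr-8 and skr-13 lie well above the line, and the other cullins lie close to it.

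Blocking the proteasome and heat both raise the response, so both systems were listed. Of all 16888 tested genes, 19.8% were higher and 16.7% lower in gld2-ccf1 against gld2, and 586 and 9320 genes on the somatic base. Between wt and gld2 they were 28.8% and 20.2%, and 6481 and 1292 genes on the somatic base. Of 33 proteasome genes, 10 rose and 3 fell in gld2-ccf1 against gld2, with values from -0.33 to 0.48, and on the somatic base 31 fell. Between wt and gld2, 25 fell and 1 rose, and on the somatic base 6 fell and 2 rose. The subunit genes rpt-6 and rpn-5 rose in gld2-ccf1 by 0.48 (SE 0.07, adjusted p = 3.48e-05) and 0.34 (SE 0.06, adjusted p = 2.08e-04), and stood at -0.29 and -0.42 on the somatic base. Of 12 tested heat shock genes, 3 rose and 1 fell there, and on the somatic base 11 fell. Between wt and gld2, 2 heat shock genes rose and 6 fell, with a median of -0.29, and on the somatic base 4 rose and 2 fell. The chaperone gene hsp-70 was among those that rose, from 0.821 ± 0.514 to 4.78 ± 2.92 CPM (2.52, SE 0.56, adjusted p = 0.00128), and had 2.53 ± 0.246 CPM in gld2-ccf1 (-0.91, SE 0.51, adjusted p = 0.181; -1.71 with adjusted p = 0.0148 on the somatic base). Of 15 tested TRP channel genes besides trpl-5, 6 rose in gld2-ccf1, where 8 fell on the somatic base. Among those that rose was trpl-2 from 2.27 ± 0.138 to 5.54 ± 0.124 CPM (1.28, SE 0.24, adjusted p = 3.58e-04; 0.51 with adjusted p = 0.116 on the somatic base).

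Markers of tissues moved in the same comparisons. Among all genes 28.8% were higher and 20.2% lower between wt and gld2, and 19.8% and 16.7% in gld2-ccf1 against gld2. On the somatic base 6481 genes were higher and 1292 lower between wt and gld2, and 586 and 9320 in gld2-ccf1 against gld2. Between wt and gld2, where skr-4, eol-1, F26F2.1, fbxa-158, zip-1 and 13 genes of the wider response list were called higher, 11 of 13 germline and oocyte genes fell and 14 of 14 tested sperm genes rose. On the somatic base 8 of the germline genes fell and the 14 sperm genes rose. The summed germline list was 10000 to 11700 CPM for wt and 5330 to 5610 for gld2, and the summed sperm list 1.29 to 4.46 and 191 to 230. There, 4 intestinal genes rose and 9 fell, 1 epidermal gene rose and 5 fell, 5 neuronal genes rose and 1 fell, and 5 muscle genes fell.

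In gld2-ccf1 against gld2, 10 of 19 intestinal genes were higher and 4 lower, 6 of 13 epidermal genes were higher and 1 lower, 11 of 13 muscle genes and 4 of 12 neuronal genes were higher, 8 of 13 germline and oocyte genes were higher and 1 lower, and 5 of 14 sperm genes were lower. On the somatic base the numbers higher and lower were 3 and 7 for the intestine, 1 and 4 for the epidermis, 1 and 2 for muscle, 0 and 5 for neurons, 0 and 4 for the germline and 0 and 11 for sperm. That base was computed on the intestinal, epidermal, muscle and neuronal genes, which holds their joint change near none by construction. The counts of these 4 lists on it therefore cannot show whether those tissues changed. The summed intestinal list, of the tissue in which the response is best known, was 2120 to 2580 CPM for wt, 1680 to 1730 for gld2, 1840 to 1980 for gld2-ccf1, 2280 to 2350 for gld2-ccr4 and 1650 to 1800 for gld2-parn1. The muscle list summed to 4120 to 5160 CPM for wt, 3730 to 3980 for gld2, 5270 to 7410 for gld2-ccf1, 6110 to 7110 for gld2-ccr4 and 4760 to 6400 for gld2-parn1, and the sperm list, in the same order from gld2 on, to 191 to 230, 126 to 160, 166 to 204 and 265 to 347. The intestinal transcription factor gene elt-2 rose from 3.24 ± 1.24 CPM in gld2 to 14.5 ± 1.64 in gld2-ccf1 (2.16, SE 0.24, adjusted p = 1.16e-06), while the gut esterase gene ges-1 averaged 33.7 ± 0.509 and 28.8 ± 2.72 (adjusted p = 0.102). Among the mutants the mean intestinal and epidermal sums were highest in gld2-ccr4. A summed list is weighted towards its most abundant genes and does not measure cell number. The part of tissue composition in the members' levels was not tested.

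Position was not used to choose the 8 genes. Chromosome V holds 6 of them, and 20.1% of the tested genes. Of 31 genes that overlap a member or are among its 2 nearest protein-coding genes on a side, 20 were tested, and 6 rose and 5 fell in gld2-ccf1 against gld2, beside 19.8% higher and 16.7% lower among all genes. On the somatic base 1 rose, F26F2.4, and 7 fell, beside 586 higher and 9320 lower of all 16888 tested genes. The F-box gene fbxa-189, 121 bases from skr-5, had a value of 0.50 (SE 0.25, adjusted p = 0.127). Near skr-3, fbxa-143 fell by 2.02 (SE 0.27, adjusted p = 7.83e-06). Near skr-4, Y60A3A.16 rose by 1.63 (SE 0.45, adjusted p = 0.00717; 0.85 with adjusted p = 0.0662 on the somatic base), and next to cul-6 neither K08E7.8 (adjusted p = 0.222) nor pgp-1 (adjusted p = 0.0853) was called.

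Across the 15 libraries the members' log2 CPM moved together, with Pearson r from 0.583 to 0.915 in 28 pairs (median 0.789), a description over libraries that share 5 genotypes. The closest pair was skr-3 and cul-6. The genes most like each member over the same libraries were Y37H2A.14 and gei-1 for skr-3 (r = 0.971 for both), mpz-1 (0.976) and pals-39 (0.942) for skr-4, nhr-96 (0.938) for skr-5, tba-7 (0.956) for cul-6, F53B3.6 (0.937) for F26F2.1, ZK84.1 (0.929) for F26F2.3 and F13H8.1 (0.899) for trpl-5. For eol-1 they were Y46G5A.20 (0.951) and ddn-1 (0.937), and B0507.8 (0.934), like ddn-1 of the wider response list, was also among its closest 5. F54D1.6 was among the 5 closest genes of both skr-3 (0.963) and cul-6 (0.954).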

How the data were processed

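Whole-worm RNA was measured in 15 libraries. Per the labels' protocols, total RNA was extracted with Trizol, depleted of ribosomal RNA with a kit made for mammals and made into strand-specific libraries. The deposited table holds raw read counts per gene, which the authors made with STAR 2.5.2b and featureCounts (Subread 1.4.6-p4) on WBcel235, per the submitters' processing notes, which also name FastQC and DESeq2 1.18.1. Strand setting, treatment of reads with several matches and annotation release are not given in the sources used here. The authors' normalized table was not used.

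Columns were tied to libraries by the titles in the header. Counts were analysed with edgeR 4.0.16 in R 4.3.3 (TMM factors, filterByExpr with a minimum of 10, robust quasi-likelihood fit, 5 genotype means over all 15 libraries, 10 residual degrees of freedom, Benjamini-Hochberg adjustment over 16888 genes). SE is the log2 fold change divided by the root of F. DESeq2 1.42.0 served as an alternative, with other scalings, filters, libraries left out and a replicate block, and the scripts were tested on simulated data. Counts of identifiers without a gene record were 0.155% of the total.

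The members and lists were chosen with earlier results of these data known, and the wider response list was recalled from the literature on infection. Named beside the members are all partners and regulators, of the wider list the 4 called genes with the largest change at a mean of 1 CPM or more in each main comparison, of other lists mostly the 2 called genes with the smallest adjusted p, the nearest genes, and the 5 most like each member. Not all of these are printed. Genes printed outside the rule, chosen after their values were seen, are F26F2.4, lsy-27, sdz-6, pals-18, skr-1, skr-19, cul-1, elt-2, ges-1, the other tissue genes of the library check and the targeted genes. No paralog search was run and no sequences are shown. Nothing in the labels says that libraries are separate cultures, so p-values measure the spread between these libraries, which may be technical. Every pair of replicates differed beyond sampling noise. Deviations of libraries with the same replicate number correlated by -0.0967 to 0.0922, so the numbers were not used as pairs.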

Additional observations from a re-analysis of the deposited data

How the results depend on the processing

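In gld2-ccf1 against gld2 the 8 genes kept a positive change in every alternative that tested them. The stricter filter tested only 4 of them. Values of these same libraries chose the genes, so the kept sign is a description and not a check of the rise. Over the 4 comparisons 420 of their values moved by less than the SD between replicates, 34 moved by more, and 1 called value changed sign, skr-3 in gld2-ccr4 on the somatic base (-0.04). Values that were not called, such as cul-6 in gld2-ccr4 (-0.02 on that base), also crossed 0. On that base all genes called lower were 1292 between wt and gld2. All genes called higher and lower were 586 and 9320 for gld2-ccf1, 522 and 7484 for gld2-ccr4, then 236 and 7234 for gld2-parn1. Wider response genes called lower were 1, 1, 3 and 2 in the same 4 comparisons. Called genes that changed sign on it were gon-2 (0.08) between wt and gld2. In gld2-ccf1 they were pnp-1 (-0.14), efl-1 (-0.41), sta-1 (-0.05), rpn-5 (-0.42), pas-4 (-0.49), hsf-1 (-0.08), gtl-1 (-0.40), rpt-6 (-0.29), gon-2 (-0.35), Y60A3A.19 (-0.34) and ric-7 (-0.13). In gld2-ccr4 they were rpn-5 (-0.34), pas-4 (-0.14), rpt-6 (-0.27), gon-2 (-0.27) and Y60A3A.19 (-0.15), and in gld2-parn1 pas-4 (-0.24). The somatic base shifts all values of a comparison together by its construction; the cause of other changes was not tested.

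Wider response genes called lower between wt and gld2 were 1 with the stricter filter, 1 with the 6 compared libraries alone and 0 without the libraries over 4% ribosomal RNA. In gld2-ccf1, 15 were called higher with the stricter filter and 15 with the first stretch of track numbers, where 1832 of all genes were called lower. That stretch holds 1 gld2-ccf1 library, assumed to vary like the other groups, so these counts do not check the rise. In gld2-ccr4, 2 were called lower with no filter, with 6 libraries, by DESeq2 and without libraries over 4%, and 0 higher with 6 libraries. In gld2-parn1, 1 was called lower with no filter, with 6 libraries and by DESeq2, and 7 higher without libraries over 4%. All genes higher in gld2-parn1 were 1388 with 6 libraries, 1337 by DESeq2 and 384 with the first stretch, where 467 were lower.

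Leaving out 1 library at a time gave 355 to 711 genes higher and 404 to 622 lower in gld2-parn1, both lowest without gld2-parn1 replicate 3, and 1021 (without gld2-ccr4 replicate 3) to 1221 lower in gld2-ccr4. Wider response genes ranged from 0 to 2 higher and 1 to 2 lower in gld2-ccr4, and from 1 to 2 lower between wt and gld2. With a replicate block, which the design does not call for since the numbers do not pair the libraries, members called were 3, 7, 1 and 1 and wider response genes called higher 13, 26, 2 and 14 in the 4 comparisons. Rare genes such as trpl-5 and F26F2.3, at a few counts per library in gld2, are limited by depth.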
